A study of Sus scrofa with 6 samples.

Results

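The names of 3 of the 6 lung arrays hold the letters b-T, and those of the other 3 do not. These letters, called the mark here, were taken from the headers of the deposited table of signals, and no source used here says what they stand for. The marked arrays were 3 of 6 in all, namely control replicates 1 and 3 and MSC-treated replicate 2, and the unmarked arrays were control replicate 2 and MSC-treated replicates 1 and 3. The array names do not give the treatment. Each was tied to its sample because all 27558 of its values were equal within 1e-06 to those of a single sample, whereas at most 56 were equal to those of any other. Marked and unmarked arrays were compared with treatment as a covariate over the 19124 probe sets of the category main, of which 12910 could be tied to 1 gene, giving 11748 genes with 1 probe set each.

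The lungs came from adult male German landrace pigs, by the study's methods, and the arrays are named for 6 different animals. All animals had undergone extended partial hepatectomy (ePHx), the removal of a large share of the liver, and biopsies were taken about a day later. Control animals had received the vehicle, Ringer solution, and MSC-treated animals had received porcine mesenchymal stromal cells from bone marrow, which had been differentiated towards hepatocytes and were infused into a central vein. Total RNA was labelled and put on Affymetrix Porcine Gene 1.0 ST arrays, whose probe sets cover whole transcripts. Values are log2 signals, so a difference of 1 is a doubling. The number of arrays, 3 against 3, limits the precision of each value.

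Lung tissue is a mixture of thin alveolar type 1 cells, surfactant-producing type 2 cells, airway epithelium with ciliated and secretory cells, capillary and vein endothelium, matrix-producing mesenchymal cells and resident and circulating leukocytes. Macrophages on the alveolar surface clear particles and surfactant, and secretory cells of the conducting airways release mucins and antimicrobial proteins. A piece of lung therefore differs from its neighbour with the airways, vessels and blood that it holds, and in bulk RNA more cells of a type cannot be told apart from more RNA per cell. Arrays also carry probe sets that report on the assay itself, namely probes with no target in the genome (antigenomic background), RNAs added to each sample (spike-ins) and introns and exons of broadly expressed genes.

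Arrays with the mark were closest to each other. Across the main probe sets, Pearson's r was 0.987 between control 1 and control 3, 0.989 between control 3 and MSC-treated 2 and 0.986 between control 1 and MSC-treated 2. Between a marked and an unmarked array it lay between 0.963 and 0.973. The unmarked arrays were less alike, with r of 0.982 between control 2 and MSC-treated 1, 0.970 between MSC-treated 1 and MSC-treated 3 and 0.965 between control 2 and MSC-treated 3. MSC-treated 3 thus correlated no better with its unmarked partners than with the marked arrays. These are correlations across probe sets of arrays that were normalized together, and probe sets are not replicates.

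**Figure D1:**
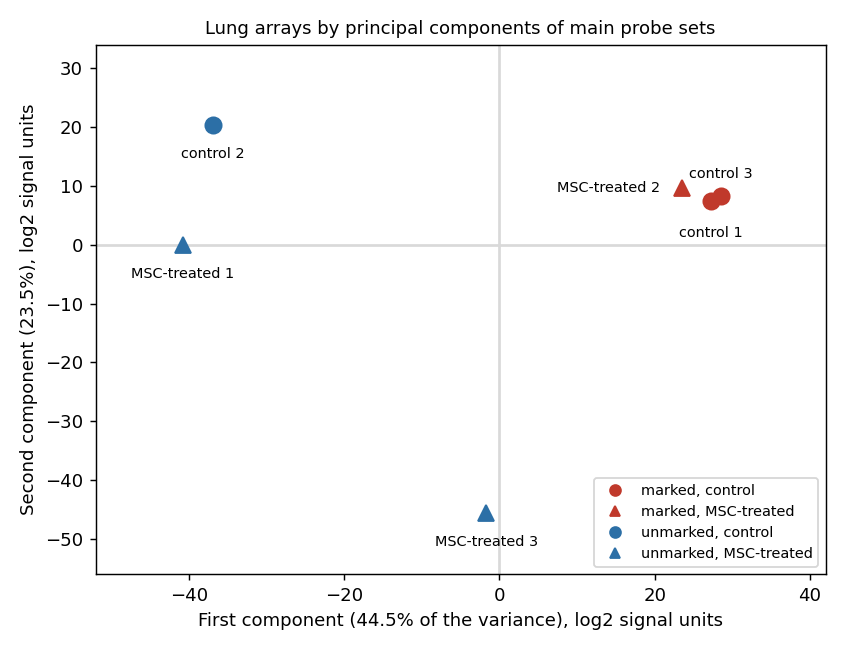
First against second principal component of the main probe sets, in log2 signal units, with 1 point for each array, colour for the mark and shape for treatment. The 3 marked arrays lie together between 23.5 and 28.6 on the first component, control 2 and MSC-treated 1 lie at -36.9 and -40.8, and MSC-treated 3 at -1.71 is set apart on the second component at -45.6.

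The mark took a larger part of the spread between arrays than treatment did in the same fit. Of the sum of squares over all main probe sets, 38.1% went to the mark, 14.9% to treatment and 44.7% to the residual. The median absolute log2 difference was 0.21 for the mark and 0.14 for treatment. With a p under 0.05 before adjustment and an absolute log2 difference of 0.5 or more, called the study's thresholds here, limma called 2686 of 19124 probe sets (14.0%) along the mark, 1463 of them higher (7.65%) and 1223 lower (6.40%) in marked arrays. For treatment, 545 probe sets (2.85%) were called. At an adjusted p under 0.05 there were 158 calls along the mark (0.826%), 107 higher (0.560%) and 51 lower (0.267%), and 2 for treatment (0.0105%). Of the 2686 calls, 247 were called for treatment as well, and 2683 had the same sign within control and within MSC-treated arrays. Within control 2 marked arrays stand against 1 unmarked, and within MSC-treated 1 marked array stands against 2 unmarked. The fitted difference is the mean of these within-treatment differences, and disagreement between them raises its p. A shared sign is therefore largely built into the calls, and its share over all probe sets was not counted. The count at the study's thresholds was 4068 without MSC-treated 3 and 1510 without control 2, and the count at an adjusted p under 0.05 was 2153 without MSC-treated 3 but between 0 and 17 without any other single array.

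Of the 11748 genes, 1604 (13.7%) were called, 998 higher (8.50%) and 606 lower (5.16%), and the median log2 difference of all genes was -0.01. These shares are the background for the counts of gene groups given next. There, rose and fell mean called at the study's thresholds as higher or lower in marked arrays. The share of main probe sets called was 4.93% at a mean log2 signal of up to 3 and 23.3% between 8 and 9. A list of bright genes therefore has a higher background than the share over all genes. At an adjusted p under 0.05, 82 genes were higher (0.698%) and 15 lower (0.128%). Differences are given with their standard error and limma's p after Benjamini-Hochberg adjustment over all main probe sets. All marked arrays lay above all unmarked ones for 1436 genes (12.2%) and below them for 1271 (10.8%). The signals of 20 of the genes described next are shown array by array in the plot of single genes.

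**Figure D2:**
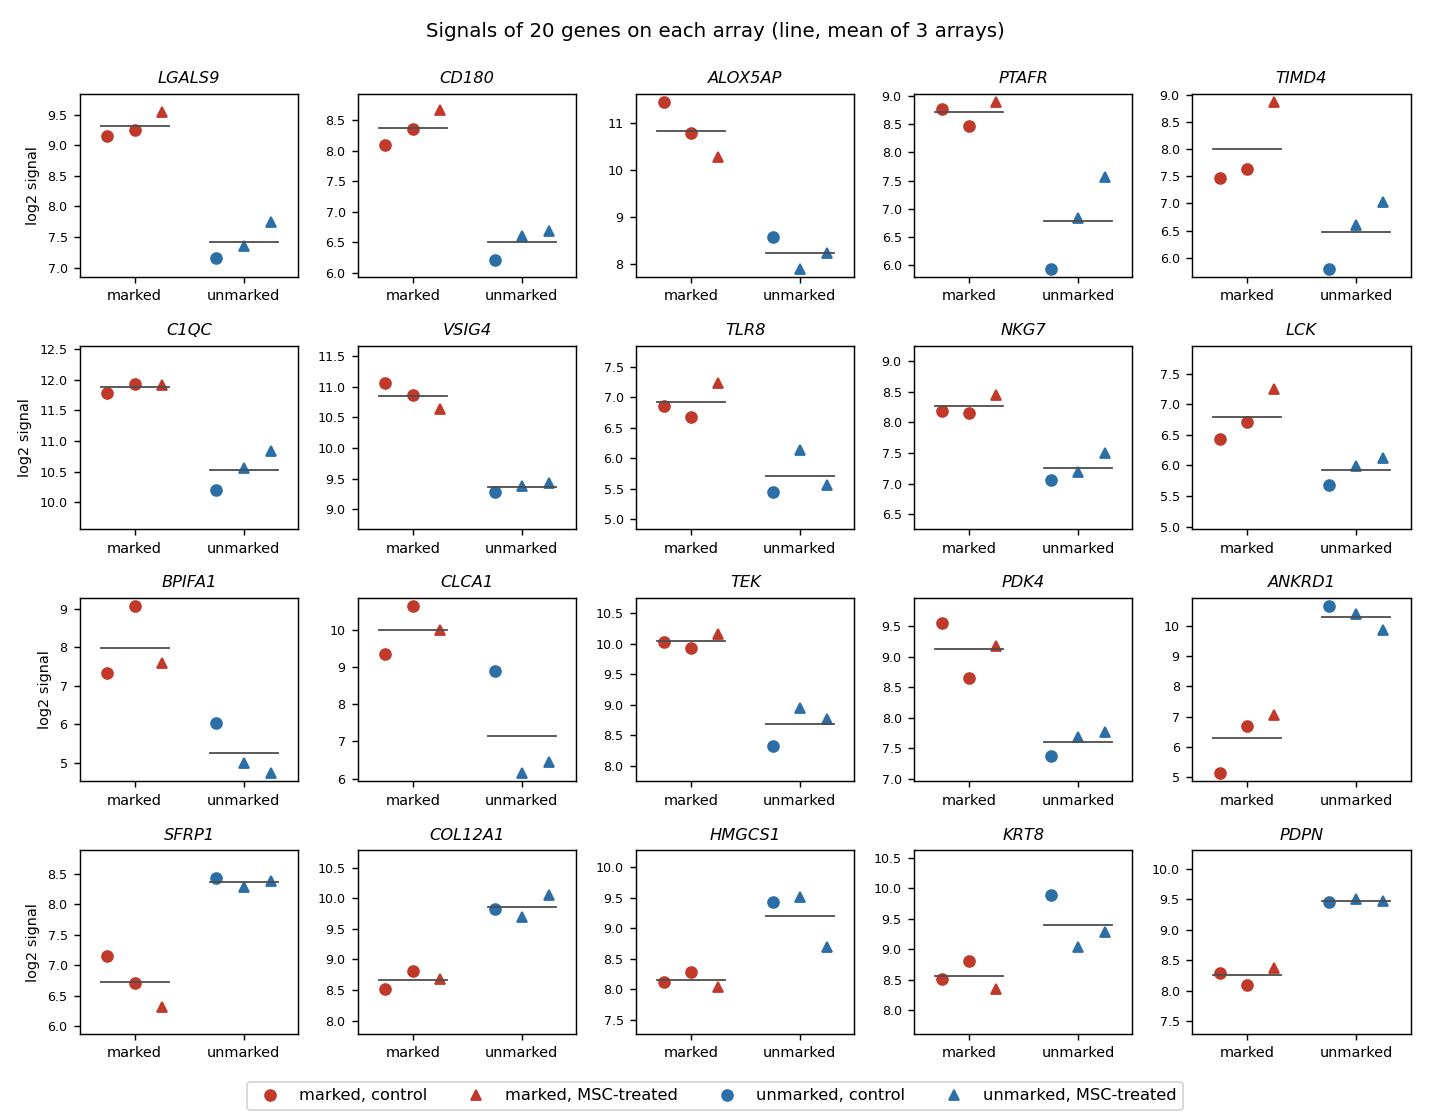
Log2 signals (vertical axes, each with its own range) of 20 genes on the 3 marked and 3 unmarked arrays, with 1 point for each array, shape for treatment and a line at the mean of 3 arrays. For all 20 genes every marked array lies on one side of every unmarked array; LGALS9, for example, lies between 9.16 and 9.54 in marked and between 7.15 and 7.74 in unmarked arrays.

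Macrophage and airway secretory markers had the highest medians along the mark among the 30 tissue components. Of 12 measured macrophage markers 7 rose, 0 fell and the median log2 difference was 0.95 (1.30 within control and 0.95 within MSC-treated arrays). The chains of complement component C1q, which binds immune complexes and is made by tissue macrophages, moved together and lie next to each other on chromosome 6 (Sscrofa10.2, from 55586559 to 55606300). C1QC had signals of 11.78, 11.93 and 11.92 on marked control 1, control 3 and MSC-treated 2 and of 10.19, 10.56 and 10.84 on unmarked control 2, MSC-treated 1 and MSC-treated 3, a difference of 1.44 (SE 0.19, adjusted p = 0.0285). Its marked arrays all lay above its unmarked ones and within a narrow band. C1QB differed by 1.41 (SE 0.23) and C1QA by 0.95 (SE 0.17).

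Other genes of resident macrophages followed. VSIG4, a complement receptor of tissue macrophages, had signals of 11.06, 10.86 and 10.63 on the marked and of 9.29, 9.39 and 9.42 on the unmarked arrays, a difference of 1.45 (SE 0.18, adjusted p = 0.0285). TIMD4, which encodes a phosphatidylserine receptor for the uptake of dying cells, stood at 7.47, 7.64 and 8.87 against 5.80, 6.60 and 7.03 and differed by 1.90 (SE 0.19, adjusted p = 0.0257). In both, the groups of arrays were apart, and in TIMD4 MSC-treated 2 lay highest. The scavenger receptor gene MARCO (1.41, SE 0.25), the lysosomal glycoprotein gene CD68 (1.49, SE 0.27) and the sialoadhesin gene SIGLEC1 (0.95, SE 0.20) rose too. Other markers of the list did not, among them MRC1 at -0.34, TREM2 at -0.05 and APOE at -0.03.

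The largest rises included genes of leukocyte lipid mediators and pattern recognition. ALOX5AP, which encodes the protein that presents arachidonic acid for leukotriene synthesis and lies on chromosome 11 (6893556 to 6904961), had signals of 11.44, 10.78 and 10.26 on marked and of 8.56, 7.90 and 8.23 on unmarked arrays and differed by 2.37 (SE 0.24, adjusted p = 0.0257). PTAFR, the receptor for platelet-activating factor, stood at 8.76, 8.46 and 8.89 against 5.94, 6.83 and 7.56 and differed by 2.18 (SE 0.29, adjusted p = 0.0324). The marked arrays lay above all unmarked ones for both. CD180, a relative of the Toll-like receptors on B cells and myeloid cells, stood at 8.09, 8.36 and 8.67 against 6.21, 6.61 and 6.69 and had the smallest adjusted p among named genes (2.01, SE 0.17, adjusted p = 0.0147). LGALS9, the gene of the immune lectin galectin-9, differed by 2.02 (SE 0.18, adjusted p = 0.0172). Within control and within MSC-treated arrays these last differences were nearly equal, at 2.01 and 2.02 for CD180 and 2.05 and 1.996 for LGALS9.

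Of 9 Toll-like receptor genes 6 rose and 0 fell, with a median of 0.67 (0.63 within control and 0.66 within MSC-treated arrays). TLR8, a sensor of single-stranded RNA in endosomes, differed by 1.35 (SE 0.20, adjusted p = 0.0455), and its neighbour TLR7 by 1.31 (SE 0.29), with 0.72 without MSC-treated 2, which missed the thresholds. TLR10 was at 0.05. Also past an adjusted p under 0.05 were IDO1, the enzyme that breaks down tryptophan (1.82, SE 0.22), the cholesterol exporter gene ABCA1 (1.35, SE 0.16) and the properdin gene CFP (1.37, SE 0.16). Of 3 monocyte markers, CD14 (0.62) and ITGAM (0.76) rose, but CD14 missed the thresholds without any 1 of 5 arrays (0.41 to 0.82) and ITGAM without control 2 (0.41).

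Neutrophil markers were called near the share of all genes (13.7% called, 8.50% higher). Of 12 measured genes 2 rose and 0 fell, and the median was 0.11 (0.44 within control and -0.02 within MSC-treated arrays; -0.27 without control 1 and 0.50 without control 3). The chemokine receptor gene CXCR2 differed by 1.64 (SE 0.29), and by 0.96 to 1.67 in the alternative settings that kept all arrays. PGLYRP1, which encodes a peptidoglycan-binding granule protein, differed by 1.27 (SE 0.17, adjusted p = 0.0292). The calprotectin gene S100A8 stood at 10.72, 7.48 and 6.77 on marked and 9.14, 8.99 and 8.31 on unmarked arrays, so that the groups overlapped and marked control 1 was far above the other marked arrays. The list median on control 1 was 7.44, against 5.53 to 6.11 on the other arrays.

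T cell and cytotoxic cell genes rose in part. Of 9 B cell markers 1 rose and 0 fell (median 0.18), and of 4 plasma cell markers (0.22) and of 4 immunoglobulin and T cell receptor genes (-0.02) 0 were called. Of 13 T cell markers 7 rose and 0 fell, with a median of 0.66 (0.34 within control and 0.87 within MSC-treated arrays), and all 13 had a positive difference. CD3D, a chain of the T cell receptor complex, had signals of 7.07, 7.11 and 7.75 on marked and of 6.29, 5.97 and 6.001 on unmarked arrays, a difference of 1.28 (SE 0.23, adjusted p = 0.0586; 0.80 without MSC-treated 2). LCK, the kinase that starts T cell receptor signalling, differed by 1.04 (SE 0.18, adjusted p = 0.0514). Neither passed the adjusted threshold, and for both the arrays were apart by mark. Of 20 genes of natural killer (NK) and cytotoxic cells 10 rose and 0 fell, with a median of 0.66, which was 0.15 within control and 1.20 within MSC-treated arrays. The granule membrane gene NKG7 (1.11, SE 0.17, adjusted p = 0.0455), the transcription factor gene EOMES (1.47, SE 0.23, adjusted p = 0.0463) and the receptor gene CD244 (1.35, SE 0.17, adjusted p = 0.0285) were past both thresholds, whereas the granzyme gene GZMK (1.24, SE 0.33) was at 0.65 without MSC-treated 2 and missed them. NK and cytotoxic markers were highest on MSC-treated 2, with a list median of 6.99 against 5.69 to 6.06 on the other arrays.

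Genes of antigen presentation rose in part, in class I and in class II. Of 11 genes of major histocompatibility complex (MHC) class II presentation 8 rose, 0 fell and 11 had a positive difference, with a median of 0.59 (0.51 within control and 0.81 within MSC-treated arrays). SLA-DRA, the alpha chain of the porcine DR molecule, had signals of 11.66, 11.71 and 11.88 on marked and of 11.06, 10.88 and 11.22 on unmarked arrays (0.73, SE 0.18, adjusted p = 0.102). SLA-DMB, a chain of the DM molecule that loads peptides, differed by 0.87 (SE 0.18) and SLA-DOB, a chain of its inhibitor, by 1.02 (SE 0.26). None of these 3 passed an adjusted p under 0.05, and without MSC-treated 2 SLA-DRA (0.63) and SLA-DOB (0.51) missed the study's thresholds. Of 16 class I genes 4 rose and 0 fell with a median of 0.34 (0.07 and 0.77), led by TAPBP, the tapasin gene, at 0.98 (SE 0.17). The class I list median was 8.42, 8.46 and 8.80 on marked and 7.84, 7.97 and 7.98 on unmarked arrays, with no overlap, and whether the arms differed was not tested.

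Interferon-stimulated genes rose in part. Of 25 measured, 7 rose and 0 fell, and the median was 0.56 (0.27 within control and 0.91 within MSC-treated arrays). For 1 gene all marked arrays lay above all unmarked ones, and for 1 gene below them. Over all genes these shares were 12.2% and 10.8%. MX2, an antiviral GTPase, stood at 8.86, 9.49 and 9.70 on marked and 7.88, 8.54 and 8.68 on unmarked arrays (1.20, SE 0.21, adjusted p = 0.056). For OAS2, which makes the activator of RNase L, the values 8.73, 9.70 and 10.29 overlapped with 8.03, 8.49 and 9.22 (1.31, SE 0.32), as those of IFIT3 did (1.18, SE 0.26). Of 39 chemokines and their receptors 11 rose and 0 fell (median 0.29; 0.46 without control 2), and of 23 inflammatory cytokine genes 7 rose and 0 fell (median 0.33; 0.22 without MSC-treated 2 and 0.52 without control 2). NFKBIA, the inhibitor of NF-kappa-B that is itself a target of it, differed by 1.13 (SE 0.28) and missed the thresholds without MSC-treated 2 (0.99).

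The plot of list medians sets these leukocyte groups beside the epithelial, vascular and stress groups.

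**Figure D3:**
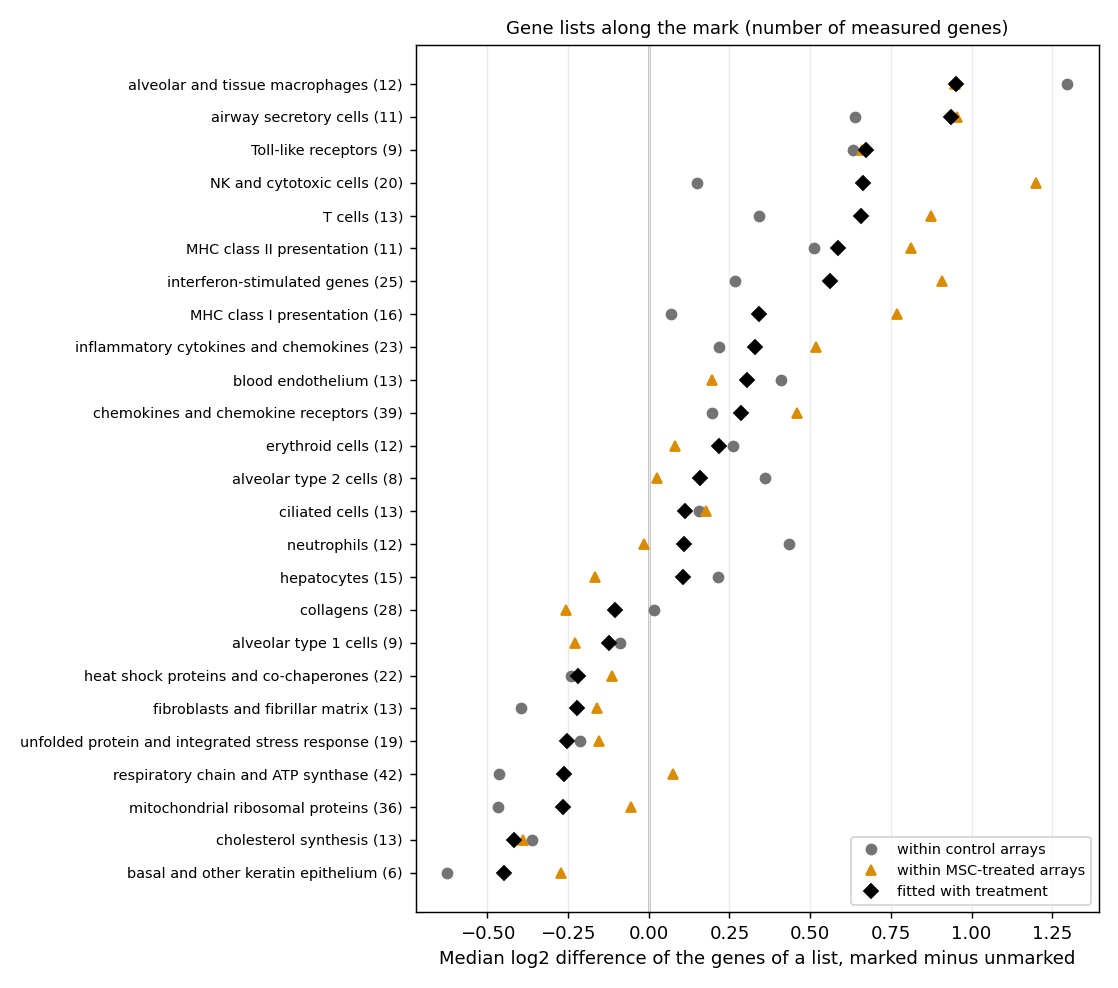
Median log2 difference between marked and unmarked arrays (horizontal axis) over the measured genes of 25 lists, with the number of genes in brackets, for the fit with treatment (diamonds), within control arrays (circles) and within MSC-treated arrays (triangles). Macrophage (0.95) and airway secretory (0.94) markers lie farthest to the right and keratin epithelium (-0.45) and cholesterol synthesis (-0.42) farthest to the left, while the NK and cytotoxic list spans 0.15 to 1.20 between control and MSC-treated arrays.

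Markers of secretory airway cells were higher in marked arrays. Of 11 measured 8 rose, 0 fell and the median was 0.94 (0.64 within control and 0.96 within MSC-treated arrays). The list median was 7.13, 7.52 and 7.59 on the marked and 6.03, 5.58 and 5.43 on the unmarked arrays, with no overlap. BPIFA1 and BPIFB1, secreted antimicrobial proteins of the upper airway epithelium, are encoded close to each other on chromosome 17 (38674719 to 38681769 and 38702396 to 38729891). BPIFA1 had the largest rise among the named genes, with signals of 7.32, 9.06 and 7.59 on marked and 6.03, 4.99 and 4.73 on unmarked arrays (2.45, SE 0.44, adjusted p = 0.056). BPIFB1 stood at 7.57, 8.50 and 7.97 against 6.53, 5.58 and 5.42 (1.99, SE 0.31, adjusted p = 0.0472). Marked control 3 was highest for both and the unmarked MSC-treated arrays were lowest.

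PIGR, the receptor that carries immunoglobulin A across the epithelium, differed by 1.29 (SE 0.26) and AGR2, a chaperone of mucin folding, by 1.16 (SE 0.24). The goblet cell gene CLCA1, which is not on the list, stood at 9.36, 10.63 and 10.004 on marked and at 8.88, 6.15 and 6.44 on unmarked arrays (2.41, SE 0.58, adjusted p = 0.0995), with differences of 1.11 within control and 3.71 within MSC-treated arrays, and the 1.11 left without MSC-treated 2 missed the thresholds. The secretoglobin gene SCGB3A1 stood at 9.61, 10.26 and 10.75 against 9.75, 8.02 and 6.99, so that unmarked control 2 lay among the marked arrays. Its difference of 1.71 (SE 0.64) was 0.18 without MSC-treated 2, 1.72 without MSC-treated 1 and 1.27 without MSC-treated 3, each time short of the thresholds. Lysozyme, LYZ, also a product of airway glands and macrophages, was at -0.65 and was not called. Of 13 markers of ciliated cells of the same airways 0 rose and 1 fell, near the share of all genes (8.50% higher and 5.16% lower). Of these markers 10 had a positive and 3 a negative difference. The median was 0.11, with 0.16 within control and 0.18 within MSC-treated arrays, and 0.00054 without MSC-treated 3.

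Alveolar markers were called near the share of all genes (13.7%). They are bright, with a median of the mean log2 signals of 9.62 for type 2 and 9.73 for type 1 cell genes. Of main probe sets with a mean log2 signal between 9 and 10, a higher share of 23.3% was called. Of 8 type 2 cell genes 1 rose, LPCAT1 (0.67), and the median was 0.16 (0.36 within control and 0.02 within MSC-treated arrays). The surfactant protein gene SFTPC stood at 12.27, 12.53 and 12.33 on marked and 12.50, 12.53 and 12.54 on unmarked arrays, a difference of -0.16 (95% interval -0.54 to 0.23), and SFTPB at 0.42 (-0.17 to 1.01). Of 9 type 1 cell genes 1 fell. This was PDPN, podoplanin, with 8.29, 8.09 and 8.38 against 9.46, 9.51 and 9.47 (-1.19, SE 0.16, adjusted p = 0.035), whereas AGER was at -0.21. The gap in PDPN between the groups was wider than the spread within either of them. Podoplanin is also made by lymphatic endothelium and mesothelium, and which cells its fall came from was not tested. Of 5 lymphatic endothelium genes 1 rose and 0 fell, and 4 had a negative difference (median -0.12). Of 6 mesothelium genes 0 were called, and 4 had a mean log2 signal below 5 (median -0.11). As a check of the tissue label, 0 of the type 2 and type 1 cell markers had a mean log2 signal below 5, while 12 of 15 hepatocyte markers did, of which 0 were called.

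Vascular genes rose in a few members. Of 13 blood endothelial markers 4 rose and 0 fell, with a median of 0.30 (0.41 within control and 0.20 within MSC-treated arrays). TEK, the angiopoietin receptor, had signals of 10.03, 9.92 and 10.16 on marked and of 8.32, 8.94 and 8.76 on unmarked arrays (1.48, SE 0.17, adjusted p = 0.0268). VWF, the von Willebrand factor of large vessels and platelets, differed by 1.09 (SE 0.23; 0.70 without control 2) and the P-selectin gene SELP by 0.97 (SE 0.23; 0.66 without MSC-treated 2, past the thresholds no longer). Pan-endothelial PECAM1 and CLDN5 were at 0.18 and -0.24 and were not called. Of 12 erythroid genes 0 were called, and the haemoglobin gene HBB stood at 9.48, 8.69 and 7.85 against 7.91, 6.48 and 7.96 (0.90, SE 0.42), with overlap. Of the remaining large rises, the matrix proteoglycan gene PRELP differed by 2.18 (SE 0.36, adjusted p = 0.0492), the retinoid receptor gene RXRG by 2.20 (SE 0.42, adjusted p = 0.064) and TSPAN12, a tetraspanin of Norrin signalling in vessels, by 1.64 (SE 0.16, adjusted p = 0.0225). PDK4, the kinase that shuts off pyruvate oxidation and responds to fasting and glucocorticoids, differed by 1.59 (SE 0.26, adjusted p = 0.0482).

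The largest fall was in ANKRD1, a nuclear cofactor of muscle and of stretched or injured cells. It lies on chromosome 14 (107545885 to 107554865) and had signals of 5.13, 6.69 and 7.05 on marked and of 10.63, 10.38 and 9.86 on unmarked arrays (-3.90, SE 0.50, adjusted p = 0.0285). The gap between the lowest unmarked and the highest marked array was wider than the spread within either group. Of the matricellular genes CTGF and CYR61, CTGF stood at 8.01, 9.36 and 8.82 against 9.72, 9.85 and 10.45 (-1.19, SE 0.37, adjusted p = 0.172) and CYR61 differed by -0.94 (SE 0.34). Both missed the thresholds without MSC-treated 2 (-1.04 and -0.90) and without control 2 (-1.33 and -0.99), and CYR61 also without control 1 (-0.74). ANKRD1 is also on the cardiac muscle list, of whose 16 genes only it and the natriuretic peptide gene NPPB (-0.81; -0.44 without control 2, not called) fell. Of that list 14 genes had a negative difference, with a median of -0.16, and 8 had a mean log2 signal below 5. For 3 of its genes all marked arrays lay below all unmarked ones, and for 1 above them. Over all genes these shares were 10.8% and 12.2%. Of 8 skeletal muscle genes 0 were called.

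Matrix genes were lower in part. Of 28 collagen genes 6 fell and 0 rose, with a median of -0.10, which was 0.02 without MSC-treated 2 and -0.25 without control 2. COL12A1, a collagen on fibril surfaces, had signals of 8.52, 8.81 and 8.67 on marked and of 9.82, 9.70 and 10.05 on unmarked arrays (-1.18, SE 0.19, adjusted p = 0.0472), and COL8A1, a short-chain collagen of vessel walls, differed by -1.04 (SE 0.17, adjusted p = 0.0482). The fibrillar collagen genes COL3A1 (-0.79, SE 0.20), COL1A2 (-0.62, SE 0.18) and COL5A2 (-0.66, SE 0.18) fell with all arrays but missed the thresholds without MSC-treated 2 (-0.56, -0.54 and -0.54). SERPINH1, the collagen chaperone of the endoplasmic reticulum, differed by -1.08 (SE 0.24), whereas COL1A1 was at -0.11. SFRP1, a secreted antagonist of Wnt, stood at 7.16, 6.71 and 6.32 against 8.43, 8.28 and 8.38 (-1.75, SE 0.21, adjusted p = 0.0268). The lubricin gene PRG4, which coats joints and serosal surfaces, stood at 4.45, 6.09 and 3.75 against 8, 6.51 and 5.61 (-2.52, SE 0.45) with an overlap between control 3 and MSC-treated 3.

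Simple epithelial keratins fell. KRT8 had signals of 8.51, 8.80 and 8.35 on marked and of 9.88, 9.04 and 9.28 on unmarked arrays (-1.02, SE 0.19, adjusted p = 0.064). Its partner KRT18 differed by -1.04 (SE 0.24; -0.65 without control 2) and KRT19 by -0.64 (SE 0.18; -0.45 without control 2), and both missed the thresholds without that array, on which all 3 keratins were highest. GABRP, a receptor subunit found in epithelia, differed by -1.59 (SE 0.32). Of 23 keratin genes 3 fell and 0 rose, and 17 had mean log2 signals below 5. Their median was -0.03, with 8 positive and 15 negative differences. Of the 6 measured genes on the list of basal and other keratin epithelium 3 fell and 0 rose, namely KRT8, KRT18 and KRT19. That list had 2 positive and 4 negative differences and a median of -0.45 (-0.63 within control and -0.27 within MSC-treated arrays).

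Metabolic and stress groups are to be read beside the background of 8.50% of genes higher and 5.16% lower. Of 22 heat shock and co-chaperone genes 0 rose and 4 fell, and 17 had a negative difference (median -0.22). Of 18 hypoxia and glycolysis genes 1 rose and 0 fell (median 0.14), of 16 metallothionein and antioxidant genes 2 rose and 0 fell (0.21), of 11 glucocorticoid-responsive genes 3 rose and 0 fell (0.52) and of 20 immediate early genes 3 rose and 2 fell (0.37). Of 13 genes of cholesterol synthesis and uptake 3 fell, 0 rose and 12 had a negative difference, with a median of -0.42 (-0.36 within control and -0.39 within MSC-treated arrays). HMGCS1, a synthase early in the pathway, had signals of 8.11, 8.28 and 8.04 on marked and of 9.42, 9.50 and 8.69 on unmarked arrays (-1.14, SE 0.24, adjusted p = 0.075). CYP51, the lanosterol demethylase, differed by -0.95 (SE 0.21) and FDPS, farnesyl diphosphate synthase, by -0.73 (SE 0.16).

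Of 19 genes of the unfolded protein and integrated stress response 7 fell and 1 rose, with a median of -0.25 (-0.15 without control 2). SDF2L1, a component of the chaperone complex of the endoplasmic reticulum, stood at 6.05, 6.20 and 6.14 against 7.21, 7.09 and 7.57 (-1.14, SE 0.19, adjusted p = 0.0502). The serine synthesis enzymes PSAT1 and PHGDH and the asparagine synthetase ASNS, all targets of ATF4, rested on unmarked control 2. PSAT1 was at 8.97 there, 6.24 and 4.71 on the other unmarked arrays and 5.38, 5.22 and 4.52 on the marked ones (-2.31, SE 0.62; -0.95 without control 2). ASNS (-1.28, SE 0.50) was at -0.21 and PHGDH (-0.70, SE 0.23) at -0.44 without control 2, and none of the 3 was called without it. ASNS was also not called without control 1 (-1.24), control 3 (-1.02) or MSC-treated 1 (-1.19).

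Mitochondrial groups also rested largely on control 2. Of 42 nuclear genes of the respiratory chain and ATP synthase 7 fell and 1 rose, with a median of -0.26 that was -0.46 within control and 0.08 within MSC-treated arrays, and of 36 mitochondrial ribosomal protein genes 5 fell and 1 rose, with medians of -0.26, -0.47 and -0.06. The list medians on control 2 were 8.68 and 7.78, above those of the other arrays (7.72 to 8.22 and 7.14 to 7.46). Of 48 cytosolic ribosomal protein genes 3 rose and 3 fell, of 10 mitochondrially encoded genes 0 rose and 1 fell, and of 151 zinc finger genes 6 rose and 7 fell, against a background of 8.50% of genes higher and 5.16% lower.

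Many small noncoding RNAs were lower in marked arrays. Small nucleolar RNAs (snoRNAs) guide the chemical modification of ribosomal RNA, and small nuclear RNAs (snRNAs) are parts of the spliceosome. Classes were taken from the biotype in the array's annotation, a grouping added after the tables had been seen. Of 173 snoRNA probe sets with a mean log2 signal of at least 5, 88 fell (50.9%) and 3 rose, with a median of -0.67 (-0.77 within control and -0.58 within MSC-treated arrays). Over all 299 snoRNA probe sets the median signal was 5.63, 5.36 and 5.36 on marked and 6.21, 6.55 and 5.53 on unmarked arrays, so that the groups overlapped. Of 86 snRNA probe sets at that level, 51 fell (59.3%) and 0 rose, with a median of -0.78. Among all 13080 main probe sets at that level 7.07% fell and 10.4% rose, a lower share of falls than in either small RNA class. Some probe sets held the same values as another, and the snoRNA and snRNA probe sets at that level had 156 and 78 distinct sets of values.

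**Figure D4:**
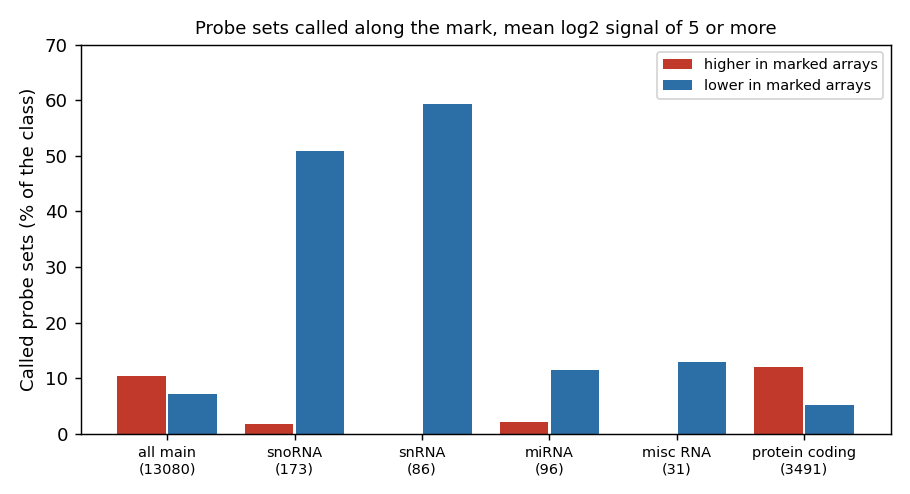
Percent of probe sets called as higher (red) or lower (blue) in marked arrays, for classes of the annotated biotype with a mean log2 signal of at least 5; the number of probe sets is under each name. For snoRNAs and snRNAs 50.9% and 59.3% were lower and 1.73% and 0% higher, against 5.16% lower and 12.1% higher for probe sets annotated as protein coding.

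SNORA68, on chromosome 2 (62116892 to 62117023), had signals of 10.42, 9.85 and 10.18 on marked and of 12.38, 12.30 and 11.30 on unmarked arrays (-1.93, SE 0.32, adjusted p = 0.0492). SNORD17 stood at 9.69, 9.17 and 9.36 against 11.30, 11.49 and 10.39 (-1.73, SE 0.32, adjusted p = 0.0604), and SNORA2B at 6.25, 6.55 and 6.22 against 9.68, 9.20 and 7.31 (-2.66, SE 0.51, adjusted p = 0.064). In all 3 the marked arrays were apart from the unmarked ones, and MSC-treated 3 was the lowest of the unmarked arrays. SNORD21 differed by -1.79 (SE 0.40). The shift was smaller in dim probe sets, where 20 of 126 snoRNA (median -0.17) and 90 of 524 snRNA probe sets (median -0.22) fell. MicroRNA precursors with a signal of at least 5 fell in 11 of 96 and rose in 2 (median -0.16).

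Probe sets that report on the assay also moved with the mark. Antigenomic background had a mean log2 signal of 3.88, 4.03 and 3.90 on marked and of 4.24, 4.23 and 4.14 on unmarked arrays (marked minus unmarked -0.27), and 18 of its 23 probe sets had all marked arrays below all unmarked ones, where the share among main probe sets was 12.5%. Hybridization spike-ins differed by -0.33 and poly-A spike-ins by -0.41, and the marked arrays were below the unmarked ones for both. By class means each of these is p = 0.1 in a two-sided exact permutation test of 3 against 3, the smallest p that the design allows. By class medians, background is p = 0.2 in the same exact permutation test. Its median was 3.30 on marked control 3 and 3.29 on unmarked MSC-treated 3, so that the groups overlapped.

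Intronic control probe sets stood at 4.39, 4.32 and 4.47 on marked and 4.63, 4.97 and 5.10 on unmarked arrays (-0.51, exact permutation p = 0.1), exonic ones differed by -0.09 and ribosomal RNA by -0.16 (exact permutation p = 0.1 each). Intron minus exon signal was lower by 0.08 within control and by 0.54 within MSC-treated arrays. Probe sets on the mitochondrial chromosome overlapped between the groups (-0.37, exact permutation p = 0.3). The differences of these classes are plain means of marked minus unmarked arrays, and with treatment as a covariate they were -0.28 for background, -0.31 and -0.41 for the spike-ins, -0.42 for introns, -0.11 for exons, -0.14 for ribosomal RNA and -0.20 for the mitochondrial chromosome. The part of background, spike-in or intronic signal in the differences of the gene groups was not tested. The share of called probe sets was 4.93% at a mean log2 signal of up to 3 and 23.3% between 8 and 9.

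**Figure D5:**
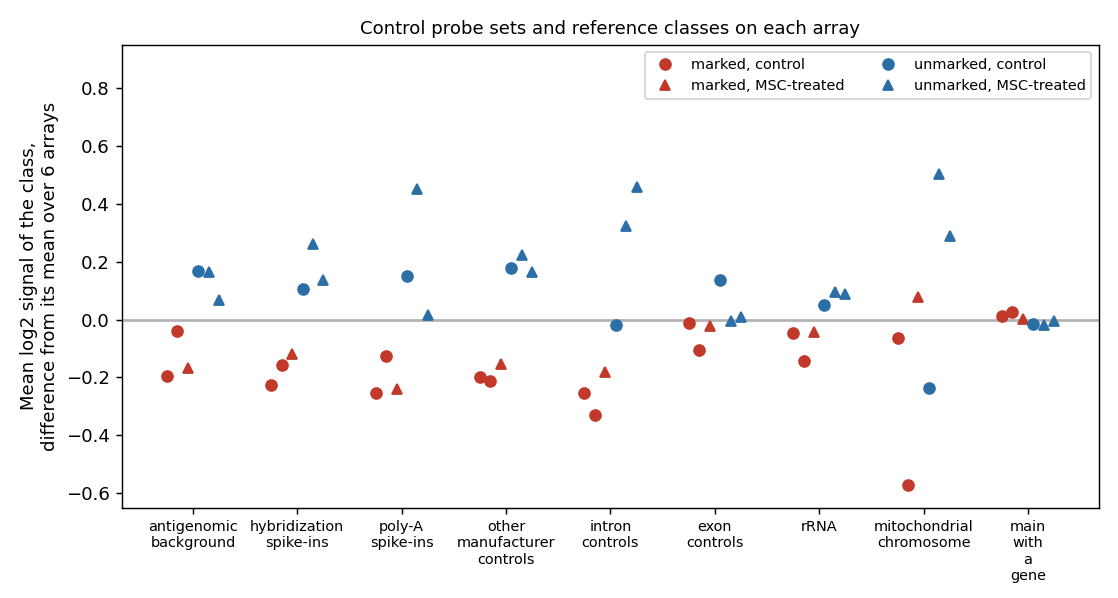
Mean log2 signal of control and reference classes of probe sets on each array, as the difference from the mean of the class over 6 arrays (vertical axis), with colour for the mark and shape for treatment. Background, spike-in and intron classes lie lower on all 3 marked arrays, the mitochondrial chromosome does not separate by mark, and the 12910 main probe sets with a gene lie near 0.

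Whether the mark's difference was unequal in the 2 treatments was fitted as an interaction, with 2 residual degrees of freedom. limma called 497 of 19124 probe sets (2.60%) at the study's thresholds and 0 at an adjusted p under 0.05, and 497 had an unadjusted p under 0.05. The mark was not balanced over treatment, since 2 of its 3 arrays were control arrays, and unmarked control 2 and marked MSC-treated 2 are the only arrays of their kind. Their own deviations therefore enter every within-treatment value, and differences between animals, between pieces of tissue and between marked and unmarked arrays cannot be told apart here.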

How the data were processed

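The deposited values are log2 signals. The authors obtained them for the 6 arrays with the robust multi-array method (RMA), which corrects background, quantile-normalizes and summarizes probes, in Affymetrix Expression Console 1.4 by the submitters' processing notes. Quantile normalization gives all arrays nearly the same distribution, so a shift shared by most probe sets is not seen, and a fall of one class is relative to the rest. A batch correction with ComBat is named in the methods and is not part of these values. The 6 signal columns that carry the array names served only for the names and for the tie to samples by equal values, and fold and p columns were not used. The column of other content in the deposited annotation, the number of probes, was not tested.

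Marked and unmarked arrays were set against each other in R 4.3.3 by lmFit and eBayes of limma 3.58.1 with treatment as covariate and Benjamini-Hochberg adjustment over 19124 main probe sets; 8434 others served as controls. Of the main probe sets 214 had several gene symbols and 6000 none, and names were updated through the RefSeq gene table of Sscrofa11.1. The probe set of highest mean signal stood for its gene. Of 167 called genes with several probe sets, 22 had one of opposite sign. Coordinates are those of the array's annotation (Sscrofa10.2). Single classes were compared by exact permutation tests. The 78 gene lists and the members were chosen with earlier results of these data known, and 6 biotype lists were added afterwards. Genes were named by a rule: the 12 largest rises and falls, up to 4 genes of smallest p in each list described, up to 20 at an adjusted p under 0.05 and defining markers. CD68, MARCO, SIGLEC1, SLA-DOB, GZMK, SCGB3A1, ASNS, PHGDH, SFTPC and S100A8, and list members given without a standard error, were chosen after their values were seen. The fits were tested on simulated data. Alternatives changed the covariate, normalization, filter, features, variance model, weights, test, threshold, block and arrays. Figures were drawn with Python 3.11.15 and matplotlib 3.10.9.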

Additional observations from a re-analysis of the deposited data

Results flagged for a closer look

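The median of the 19 genes of the unfolded protein and integrated stress response was lower on both marked control arrays (7.85 and 8.20) than on the unmarked one (8.50) and higher on the marked MSC-treated array (8.01) than on both unmarked ones (7.58 and 7.80). The difference between MSC-treated and control arrays in this contrast of medians was 0.80 and was not tested. These are medians of signals on each array. The median of the differences taken gene by gene was negative in both treatments, at -0.21 within control and -0.15 within MSC-treated arrays. The median signal of 15 hepatocyte markers went the opposite way to that of the stress response genes. It stood at 4.88 and 4.36 against 4.34 in control and at 4.19 against 4.39 and 4.36 in MSC-treated arrays. The difference was -0.47 and was not tested either. These signals are close to the antigenomic background of 3.88 to 4.24.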

How the results depend on the processing

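The 76 called genes that were followed through the alternatives all kept their sign in each. They were taken from the calls, and the largest rises and falls also had to share a sign within both treatments. A kept sign was therefore largely built in. Of the 76 genes, 55 were called without each single array and 21 missed the thresholds without at least 1 array. In the 10 other settings with the study's thresholds 72 kept their call, and PSAT1 (-1.60), ASNS (-0.88), PHGDH (-0.48) and SIGLEC1 (0.69) missed it without the treatment covariate. Leaving out MSC-treated 2 or control 2 gives the within-treatment values of the report.

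Without single arrays, calls along the mark ran from 1510 to 4068, higher calls from 879 to 2015, lower calls from 631 to 2053, calls at an adjusted p under 0.05 in limma from 0 to 2153 and calls for treatment from 349 to 1140. The count at an adjusted p under 0.05 was 344 without the covariate, 73 with a new quantile normalization, 72 after median centring, 288 at a mean signal of at least 5, 94 over all categories and 1705 with array weights, which gave MSC-treated 3 the lowest weight (0.27); 1885 were then called lower. Over all categories 1916 were called lower, 888 for treatment and 841 for the interaction, and at a signal of at least 5 there were 262 for the interaction. With 1 probe set for each gene, 1621 genes were called, 616 of them lower, with 339 for treatment and 291 for the interaction, and with the mean of a gene's probe sets these were 1589, 600, 340 and 282. At an absolute log2 difference of at least 1 there were 569 calls, 320 higher and 249 lower, and 53 for treatment. The methods' t-test with a fold above 2 gave 423, 241 and 182 calls and, after Benjamini-Hochberg adjustment, 0 (2863 with p under 0.05). The share of higher calls among them, 54.5% with all arrays, lay within 10 percentage points in each setting.

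The snRNA median of -0.25 was -0.16 after a new quantile normalization, -0.78 at a signal of at least 5 and -0.86 for named genes alone, and without single arrays it ran from -0.29 to -0.22. Without single arrays, the medians ran from -0.49 to -0.33 for snoRNAs, from 0.91 to 1.30 for macrophage and from 0.64 to 1.12 for secretory markers, and the differences fitted with treatment from -0.32 to -0.25 for background, -0.33 to -0.28 for hybridization and -0.49 to -0.30 for poly-A spike-ins, -0.57 to -0.27 for intron and -0.195 to -0.025 for exon controls. The root mean square distance between marks exceeded that within marks by 0.12 (0.073 to 0.192 without single arrays, 0.34 over the 2000 most variable probe sets).

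With the replicate number as a block, 2861 probe sets were called along the mark, 21 of them at an adjusted p under 0.05. The deviations of same-numbered arrays from their treatment mean correlated at -0.39, -0.49 and 0.07. Same-numbered arrays carry opposite marks and the mark was not removed, so these values cannot say whether the arrays were paired. The series' value table was not run as a setting of its own, because it holds the same values.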
